A study of Homo sapiens with 4 samples.

Results

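The alpha-arrestins ARRDC1, ARRDC2, ARRDC3 and ARRDC4 and their relative TXNIP were read by 8 probe sets. These were the probe sets whose platform annotation gave exactly 1 gene symbol, equal to one of those 5 names, and every such probe set was kept. Controls aside, they are 8 of 54613 probe sets, and 5 of the 19775 genes with a probe set of 1 symbol. The set was selected on the measured ZNF750 minus GFP differences, above all that of ARRDC3, so its values are given as a description and carry no test.

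Total RNA was hybridized to 4 Affymetrix HG-U133 Plus 2.0 arrays, 2 for each group. The cells were CaSki, a human papillomavirus-positive cervical carcinoma line, in which lentivirus had introduced either ZNF750 or, in the control cells, GFP. ZNF750 is a zinc finger factor that promotes squamous differentiation, and the study asked which genes respond to it. Both groups therefore carried a lentiviral construct and an introduced protein, in 1 cell line, and the growth label gives the medium of both as DMEM with antibiotics and 0% fetal bovine serum, a figure that may be a typing error and could not be checked. The arrays are called biological duplicates, but the labels do not say how the cultures were made, so the errors measure only the spread between these arrays.

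Alpha-arrestins carry the arrestin fold of the visual and beta-arrestins together with short PPXY motifs in the tail, which bind the WW domains of NEDD4-family ubiquitin ligases. In this way they bring a ligase to a membrane protein, which is then ubiquitinated and taken into the cell. TXNIP also binds thioredoxin and promotes the uptake of the glucose transporter GLUT1 from the cell surface. TXNIP and ARRDC4 are textbook targets of MondoA, a glucose-sensing factor that pairs with MLX.

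The promoters of TXNIP, ARRDC3 and ARRDC4 are shown because they match motifs of nutrient-responsive factors. Each window runs from 250 bases before to 50 bases after a RefSeq transcription start on GRCh38.p14, 5′ to 3′ on the strand of the gene. The TXNIP window is chr1:145996530-145996829 (minus strand), the ARRDC3 window chr5:91380048-91380347 (minus strand) and the ARRDC4 window chr15:97960453-97960752 (plus strand). Capitals mark matches, on either strand, to GNACANNNTGTNC, GTAAACA and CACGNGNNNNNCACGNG in TXNIP, to GTAAACA in ARRDC3, and to CACGTG and CCAAT in ARRDC4.
TXNIP: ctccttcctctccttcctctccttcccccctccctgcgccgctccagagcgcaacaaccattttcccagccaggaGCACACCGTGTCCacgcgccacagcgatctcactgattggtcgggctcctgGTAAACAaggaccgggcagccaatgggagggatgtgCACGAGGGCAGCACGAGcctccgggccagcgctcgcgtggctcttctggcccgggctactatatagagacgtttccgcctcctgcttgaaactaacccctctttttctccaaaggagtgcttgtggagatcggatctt
ARRDC3: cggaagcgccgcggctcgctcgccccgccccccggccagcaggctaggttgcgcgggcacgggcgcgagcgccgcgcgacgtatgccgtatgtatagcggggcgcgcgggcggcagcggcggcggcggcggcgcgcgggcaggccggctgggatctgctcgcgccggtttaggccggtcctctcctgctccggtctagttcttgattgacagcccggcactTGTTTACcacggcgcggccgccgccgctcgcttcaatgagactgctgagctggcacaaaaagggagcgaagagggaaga
ARRDC4: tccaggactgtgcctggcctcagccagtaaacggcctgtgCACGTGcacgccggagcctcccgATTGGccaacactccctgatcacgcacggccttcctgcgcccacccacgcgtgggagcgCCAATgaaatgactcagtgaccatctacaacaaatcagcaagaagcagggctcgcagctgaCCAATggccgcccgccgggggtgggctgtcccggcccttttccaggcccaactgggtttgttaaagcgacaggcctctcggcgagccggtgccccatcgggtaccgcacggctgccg

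The TXNIP window held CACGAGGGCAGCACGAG, beginning 88 bases before the start. It matches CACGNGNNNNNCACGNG, the doubled core of a carbohydrate response element, which 20 of 35116 promoter windows of the same length held (0.057%). GTAAACA, the core that FOXO factors bind, lay 124 bases before the TXNIP start and, on the opposite strand, 29 bases before the ARRDC3 start. That core was found in 3.42% of windows. RefSeq gives TXNIP and ARRDC3 another start each, and those windows, which are not printed, held neither the FOXO core nor the doubled core nor GNACANNNTGTNC. The TXNIP window also matched GNACANNNTGTNC, a relaxed glucocorticoid response element, 175 bases before the start (0.39% of windows). The ARRDC4 window held no such doubled core, but it held CACGTG, the E-box, 210 bases before the start (7.26% of windows), and 3 matches to CCAAT, the CCAAT box. The CCAAT box is common (34.6% of windows), and windows of all 5 members held it, among them the printed TXNIP window with 2 matches left in lower case. No printed match overlapped another. CCNNAGG, the motif reported for ZNF750, was found in at least 1 window of TXNIP and of ARRDC2 and in 57.9% of all windows. It was not found in the windows of ARRDC1, ARRDC3 or ARRDC4. These matches are letters in a window, and the arrays did not measure binding.

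ARRDC3 stood far above the other members in its difference, TXNIP and ARRDC2 were slightly higher in the ZNF750-labelled arrays, and ARRDC1 and ARRDC4 lay close to their GFP values. In 4 of the 8 probe sets the groups did not overlap, against 54.2% of all probe sets. Of these, 3 had every ZNF750-labelled array above every GFP array, against 29.9% of all probe sets, and 1 had every ZNF750-labelled array below, against 24.3%. In a limma fit over all 54613 probe sets, 3 of the 8 were called higher (adjusted p under 0.05), against 4.3% of all probe sets. None of the 8 was called lower, against 7.19% of all probe sets. At an unadjusted limma p under 0.05, 0 of the 8 were lower, against 13.8% of all probe sets. Because the set was proposed from this contrast, nothing is read from these counts.

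ARRDC3 is an adaptor for the breakdown of integrin beta 4 in human cells. Its probe set, 224797_at, gave log2 values of 6.49 and 6.50 on the ZNF750-labelled arrays, against 4.84 and 5.02 on the GFP arrays. The groups were separated by 1.47 log2 units between their nearest arrays. The difference was 1.57 ± 0.11 (limma SE, n = 2 arrays per group), a 2.96-fold higher signal. Both GFP values lay below 5.47, the median of all probe sets, and RMA compresses differences among such dim signals. With any 1 array left out the difference lay between 1.47 and 1.66.

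The antisense transcript ARRDC3-AS1 starts 250 bases from the ARRDC3 start shown above and runs the other way, so their promoter windows share 251 bases. Its probe set 239395_at gave 5.36 and 5.41 on the ZNF750-labelled arrays, against 5.24 and 5.07 on the GFP arrays. The groups did not overlap, but the difference of 0.23 ± 0.12 did not pass (limma adjusted p = 0.257). All 4 of these values were below the median of all probe sets.

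TXNIP was read by 3 probe sets, all with the suffix _s_at, which marks probes shared by several transcripts. The brightest, 201010_s_at, gave 10.66 and 10.59 on the ZNF750-labelled arrays, against 10.39 and 10.22 on the GFP arrays. Here the groups did not overlap and the difference was 0.32 ± 0.065, or 1.25-fold. Probe set 201009_s_at gave 8.39 and 8.70 on the ZNF750-labelled arrays, against 8.28 and 8.41 on the GFP arrays. Its groups overlapped, and the difference was 0.20 ± 0.11.

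The remaining TXNIP probe set, 201008_s_at, gave 7.08 and 7.39 on the ZNF750-labelled arrays, against 6.86 and 7.08 on the GFP arrays. ZNF750 replicate 1 and GFP replicate 2 held the same deposited value there, so the groups met, and the difference was 0.27 ± 0.13. All 3 TXNIP probe sets thus had a higher mean in the ZNF750-labelled arrays, by 1.25-, 1.15- and 1.20-fold, and 1 of them separated the groups. The sizes of the 2 dimmer probe sets moved with single arrays: without ZNF750 replicate 2 the difference was 0.045 for 201009_s_at and 0.11 for 201008_s_at, and without ZNF750 replicate 1 it was 0.35 and 0.42. Without GFP replicate 1 it was 0.13 and 0.16. The mean of all 3 probe sets gave a difference of 0.26, and with that mean TXNIP was no longer called.

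ARRDC4, the other MondoA target of the set, had a slightly lower mean in the ZNF750-labelled arrays. Its probe set 225283_at gave 6.93 and 6.93 on the ZNF750-labelled arrays, against 7.05 and 7.02 on the GFP arrays. Each group was tight, and the ZNF750-labelled arrays lay 0.09 log2 units below the GFP arrays at the nearest point. The difference was -0.11 ± 0.081, or 1.08-fold lower, and it was not called.

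ARRDC2, an alpha-arrestin whose cargo is less well known, was read by 226055_at. It gave 7.70 and 7.66 on the ZNF750-labelled arrays, against 7.39 and 7.39 on the GFP arrays. The groups did not overlap, and the difference was 0.29 ± 0.074, or 1.23-fold. It lay within 1 standard error of the 0.32 of the brightest TXNIP probe set.

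ARRDC1 recruits the ESCRT machinery to the plasma membrane and releases microvesicles in human cells. Its brighter probe set, 226405_s_at, gave 8.90 and 8.71 on the ZNF750-labelled arrays, against 8.70 and 8.84 on the GFP arrays. The difference was 0.03 ± 0.085, and the arrays of both groups were interleaved. With 1 array left out it ran from -0.06 to 0.13, so its sign was not settled. The dim probe set 234607_at gave 4.97 and 5.00 on the ZNF750-labelled arrays, against 4.94 and 4.98 on the GFP arrays, a difference of 0.03 ± 0.11. After cyclic loess this second value changed sign, to -0.03. ARRDC1-AS1, an antisense transcript named for this locus, gave a difference of 0.09 ± 0.10 (limma adjusted p = 0.659).

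**Figure D1:**
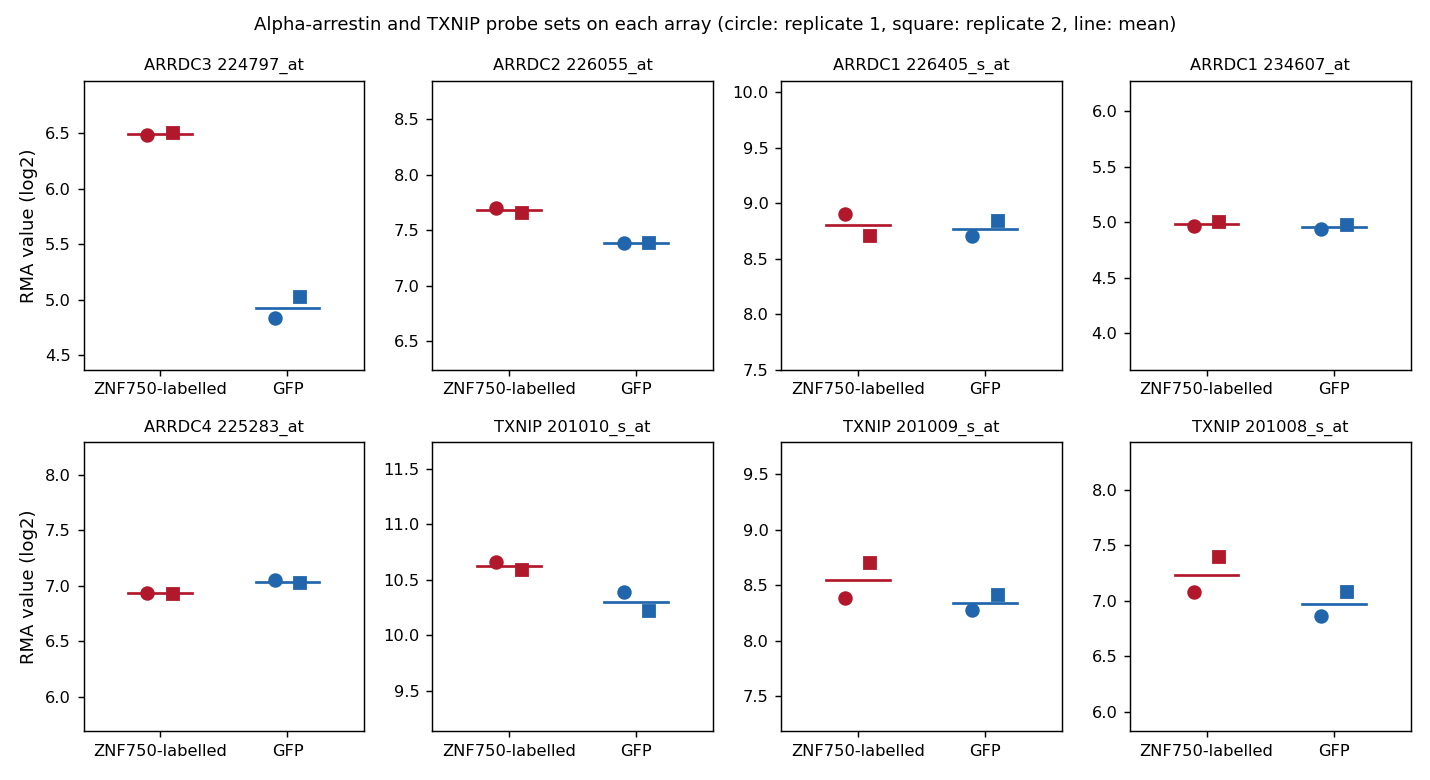
RMA log2 value (y axis, the same span of units in every panel) of each member probe set on the ZNF750-labelled arrays (left) and the GFP arrays (right), with circles for replicate 1, squares for replicate 2 and lines for means. ARRDC3 had 6.49 and 6.50 on the ZNF750-labelled arrays and 4.84 and 5.02 on the GFP arrays, whereas the points of ARRDC1 are interleaved.

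**Figure D2:**
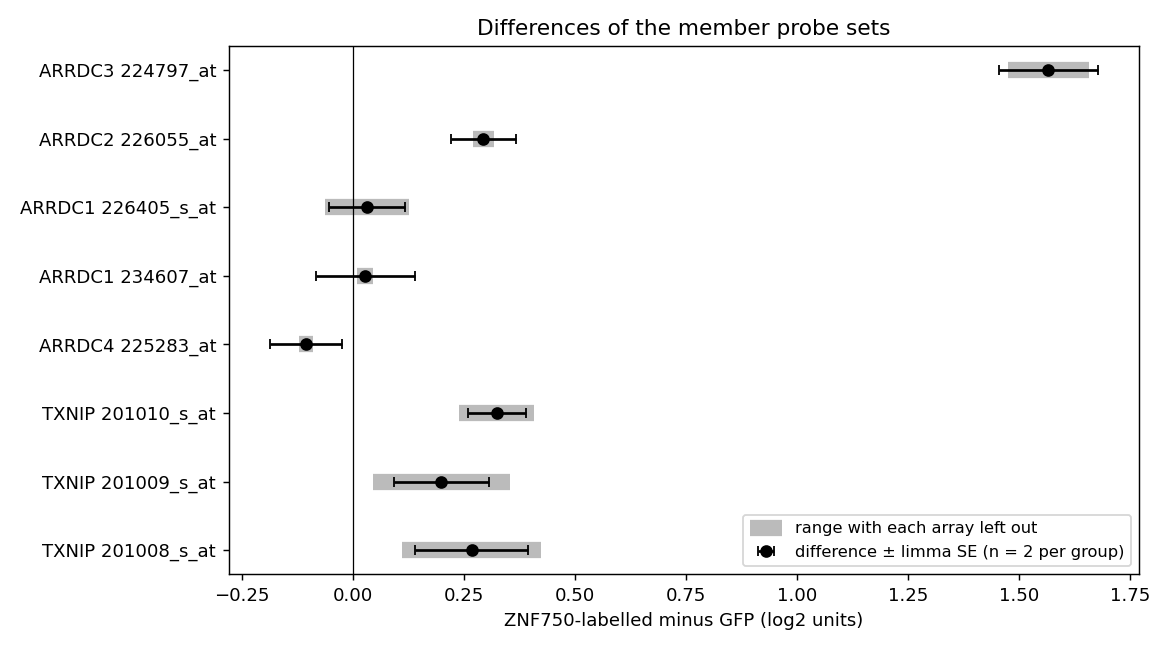
Difference of the group means (x axis, ZNF750-labelled minus GFP, log2 units) of the 8 member probe sets, with bars for limma's standard error (n = 2 arrays per group) and grey bands for the range when each array was left out. ARRDC3 kept between 1.47 and 1.66, the TXNIP probe sets stayed above 0, and the brighter ARRDC1 probe set crossed 0.

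The members were selected on their differences, above all that of ARRDC3. No call of a member in any fit is therefore read as support. ARRDC2 and TXNIP lost their calls without ZNF750 replicate 1 and also without ZNF750 replicate 2. No member was called without GFP replicate 1 or without GFP replicate 2. In those fits 10 and 8 probe sets of the whole table were called higher and 1 and 1 lower. With any array left out the lowest difference of the 3 called probe sets was 1.47 for ARRDC3, 0.27 for ARRDC2 and 0.24 for TXNIP. Their signs could not change, because every ZNF750-labelled array of each lay above every GFP array.

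The probe sets most like ARRDC3 over the 4 arrays were those of S100A9 (a calprotectin subunit), KLK10 (a kallikrein) and CYP1B1 (a cytochrome P450). Likeness was the Euclidean distance between log2 profiles after each profile's mean was subtracted, which gave 0.14, 0.16 and 0.20 log2 units. No probe set of another gene lay within 0.1 of ARRDC3. Within 0.1 of ARRDC4 there were 3289 probe sets of other genes, and within 0.1 of the brightest TXNIP probe set 514. This distance is not scaled, so fewer probe sets lie near a large difference, and these counts do not show a distinct profile. S100A9, KLK10 and CYP1B1 differed by 1.64, 1.56 and 1.66. The nearest to ARRDC4 were those of WDR72, NIFK and KIAA0825, and the nearest to TXNIP those of SDHC, IFI44 and CEPT1.

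At the level of the arrays, values correlated across probe sets at 0.9968 between the ZNF750-labelled arrays and 0.9972 between the GFP arrays, and at 0.9922 to 0.9937 between groups. The ACTB controls, whose 3′ signal minus 5′ signal tracks RNA integrity, gave 3.76 and 3.35 on the ZNF750-labelled arrays, against 3.03 and 2.81 on the GFP arrays. This measure moved with the groups beside every result given here, and its part in them was not tested. Of 10 genes listed as epithelial markers 7 were measured: KRT5, KRT14, CDH1, EPCAM, DSP, SFN and CDKN2A. All 7 lay above the median of all probe sets. Their mean was 12.3 and 12.3 on the ZNF750-labelled arrays, against 12.1 and 12.1 on the GFP arrays. Of 11 fibroblast and leukocyte markers 4 lay above that median. Their mean was 5.03 and 5.07 on the ZNF750-labelled arrays, against 4.84 and 4.99 on the GFP arrays. None of the 11 was called (0 higher and 0 lower by limma). Before adjustment 1 was higher and 0 lower (limma p under 0.05), against 15.5% of all genes in each direction. The epithelial list itself moved: KRT14 (1.10 ± 0.035) and KRT5 (0.24 ± 0.031) rose and CDKN2A (-0.29 ± 0.045) fell. Of the 7, 6 were higher and 1 lower at an unadjusted limma p under 0.05, against 15.5% of all genes in each direction. The part of this list in the results was not tested. In a bulk sample a smaller share of cells with a transcript and less of it per cell cannot be told apart.

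The ZNF750 probe set 219995_s_at gave 2.23 and 2.29 on the ZNF750-labelled arrays, against 2.13 and 2.37 on the GFP arrays, close to 1.90, the lowest value in the table. This array reads the 3′ ends of native transcripts, and a construct of the coding part alone may lack them. It therefore checks no label, and every direction given here rests on the titles of the samples.

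The proteins around the alpha-arrestins were followed in 8 lists, with 1 probe set per gene, the brightest over all 4 arrays. Together the lists held 96 measured genes, of which 10 rose and 16 fell (limma adjusted p under 0.05 over all probe sets). Of the 19775 genes 6.39% rose and 8.75% fell, with a median difference of 0.04. With dim probe sets left out, 86 of the 96 listed genes remained. In that fit 20 and 28 of them were higher and lower before adjustment (limma p under 0.05), against 17.8% and 23.1% of genes. The listed genes were mostly bright, so the 15.5% of all genes given for each list is a low yardstick, above all for genes that fell. After cyclic loess 15 of the 96 rose and 13 fell, so the balance turned with the scaling. Without the intensity trend 21 of the 26 called genes lost their call. The 5 that kept it were MXI1, BCL6, VPS28, ITGB4 and PRDX2. The calls depended on the arrays: 6 of the 26 remained without ZNF750 replicate 1, 5 without ZNF750 replicate 2, and 0 without GFP replicate 1 or without GFP replicate 2. In those last fits 15 and 17 of the 96 genes were higher at an unadjusted limma p under 0.05, against 10.4% and 10.7% of all genes. Lower were 20 and 23, against 10.7% and 12.8%.

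Among the NEDD4-family ligases and their adaptors, the enzymes that PPXY motifs recruit, 3 of 11 fell and 0 rose. At an unadjusted limma p under 0.05 these counts were 5 and 1, against 15.5% of all genes in each direction. The median was -0.07. SMURF2 gave 11.35 and 11.38 on the ZNF750-labelled arrays, against 11.87 and 11.80 on the GFP arrays, a difference of -0.47 ± 0.043 (limma adjusted p = 0.00142). Of its 4 probe sets 3 were called lower. WWP1 (-0.39 ± 0.079) and NEDD4L (-0.21 ± 0.051) also fell, but with the mean of their probe sets neither was called, and NEDD4L was not called after cyclic loess either. ITCH, the ligase best known as a TXNIP partner, differed by -0.31 ± 0.10 and was not called (limma adjusted p = 0.102). Of its 6 probe sets 1, 217094_s_at, was called lower (-0.31 ± 0.080, limma adjusted p = 0.0470). ITCH was picked out after its value was seen.

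Of 6 other proteins with the arrestin fold, 2 fell and 0 rose, with a median of 0.01. The unadjusted counts (limma p under 0.05) were 2 and 1, against 15.5% of all genes in each direction. Both that fell, VPS26B (-0.34 ± 0.085) and VPS26C (-0.29 ± 0.067), are sorting subunits of endosomal retrieval complexes. VPS26B was not called with the replicate number as a block, nor VPS26C with the mean of its probe sets. ARRB1, the beta-arrestin that desensitizes receptors, differed by 0.18 ± 0.085 and was not called. ARRDC5 was not analysed here.

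In the MAX and MLX network, which includes MondoA, 2 of 12 genes rose and 2 fell, with a median of 0.01. The unadjusted counts were 2 higher and 4 lower (limma p under 0.05), against 15.5% of all genes in each direction. The transcripts that rose were MXI1 and MXD1, which encode MAX partners that oppose MYC. MXI1 gave 10.34 and 10.31 on the ZNF750-labelled arrays, against 9.49 and 9.50 on the GFP arrays, a difference of 0.83 ± 0.050 (limma adjusted p = 0.000332). MXD1 gave 7.96 and 7.71 on the ZNF750-labelled arrays, against 7.19 and 7.03 on the GFP arrays, a difference of 0.72 ± 0.11 (limma adjusted p = 0.00679). In both genes every ZNF750-labelled array was above every GFP array.

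MXD3 (-0.38 ± 0.071) and MYC (-0.20 ± 0.049) fell, and MYC was not called after cyclic loess (-0.13). MLXIP, which encodes MondoA, differed by -0.21 ± 0.058 and missed the threshold (limma adjusted p = 0.0624). It passed with dim probe sets left out (0.0351) or with 1 probe set per gene (0.0399). It did not pass in the other alternatives, where its adjusted p ran from 0.0669 with the replicate block to 0.318 without GFP replicate 1. MLX differed by -0.17 ± 0.059 on its brightest probe set (limma adjusted p = 0.117) and was called lower with the mean of its 6 probe sets (-0.24), but after cyclic loess its difference was -0.10. Both transcripts had lower means in the ZNF750-labelled arrays, but neither brightest probe set was called in the fit over all probe sets. MLXIPL, another gene of the list, differed by 0.19 ± 0.10 and was not called (limma adjusted p = 0.272). Its groups did not overlap, and it was picked out after its value was seen. The arrays did not measure the activity of these factors, and their part in the TXNIP difference was not tested.

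Of 13 genes listed for the thioredoxin system, whose TXN product TXNIP inhibits, 4 fell and 0 rose, with a median of -0.10. Without adjustment 8 fell and 0 rose (limma p under 0.05), against 15.5% of all genes in each direction. PRDX2, a peroxiredoxin that removes peroxide, differed by -0.55 ± 0.067 and the mitochondrial reductase TXNRD2 by -0.49 ± 0.085. The others that fell were TXNL1 (-0.24 ± 0.049) and the mitochondrial peroxiredoxin PRDX3 (-0.22 ± 0.043). TXNL1 was not called after cyclic loess or with the mean of its probe sets. With that mean PRDX3 changed sign (0.04) and PRDX2 was not called (-0.12). TXN, the thioredoxin that TXNIP binds, gave 13.37 and 13.40 on the ZNF750-labelled arrays, against 13.37 and 13.36 on the GFP arrays. Its difference was 0.02 ± 0.030, and its reductase TXNRD1 differed by -0.10 ± 0.042. Neither was called, although the other TXN probe set (0.33) and the mean of both (0.17) were called higher.

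Of 13 membrane proteins reported as cargo of alpha-arrestins, 2 rose and 2 fell, with a median of 0.06. Before adjustment 4 were higher and 4 lower (limma p under 0.05), against 15.5% of all genes in each direction. ITGB4, integrin beta 4 and a cargo of ARRDC3, gave 9.69 and 9.58 on the ZNF750-labelled arrays, against 10.25 and 10.24 on the GFP arrays. Its difference was -0.61 ± 0.057 (limma adjusted p = 0.00147). Of its 5 probe sets 2 were called lower and 0 higher, and their mean (-0.22) was not called. NOTCH2 (-0.38 ± 0.059) fell on 2 of its 4 probe sets.

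INSR, the insulin receptor, rose (0.67 ± 0.11) and NOTCH1 rose (0.31 ± 0.075). INSR rose on 1 of 5 probe sets, and neither was called when the probe sets of a gene were averaged. NOTCH1 was also not called with the replicate number as a block. SLC2A1, which encodes the GLUT1 transporter that TXNIP brings into the cell, gave 8.12 and 8.00 on the ZNF750-labelled arrays, against 8.13 and 8.13 on the GFP arrays. Its difference of -0.07 ± 0.074 was not called (limma adjusted p = 0.639). The arrays measured transcripts, so the surface level of these proteins is not known.

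Of 13 ESCRT genes, the budding machinery that ARRDC1 engages, 1 rose and 1 fell, with a median of 0.01. Unadjusted, 3 were higher and 2 lower (limma p under 0.05), against 15.5% of all genes in each direction. VPS28, an ESCRT-I subunit, gave 9.61 and 9.62 on the ZNF750-labelled arrays, against 10.32 and 10.39 on the GFP arrays, a difference of -0.74 ± 0.053 (limma adjusted p = 0.000542). HGS, an ESCRT-0 subunit, rose (0.22 ± 0.049), but not with the mean of its probe sets (0.03). TSG101, the subunit that ARRDC1 binds directly, differed by -0.08 ± 0.062 and was picked out after its value was seen.

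Among 18 FOXO factors and genes widely used as their targets, 4 rose and 0 fell. Their median was 0.20, against 0.04 over all genes. Counted at an unadjusted limma p under 0.05, 9 rose and 1 fell, against 15.5% of all genes in each direction. In 12 of the 18 every ZNF750-labelled array was above every GFP array, against 33.6% of genes, and in 1 every ZNF750-labelled array was below, against 25.2%. Beside INSR, the genes that rose were BCL6, a transcriptional repressor (0.55 ± 0.059), CITED2, a coactivator (0.54 ± 0.095), and GADD45A, a stress-response gene (0.36 ± 0.038). GADD45A gave 12.12 and 12.15 on the ZNF750-labelled arrays, against 11.75 and 11.79 on the GFP arrays. With the mean of their probe sets INSR, BCL6 and CITED2 were not called. FOXO1 differed by 0.60 ± 0.19 and was not called (limma adjusted p = 0.0855), and was picked out after its value was seen.

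Of 11 glucocorticoid-related genes 2 rose and 2 fell, with a median of 0.10. At an unadjusted limma p under 0.05 the counts were 3 higher and 2 lower, against 15.5% of all genes in each direction. TSC22D3, the leucine zipper GILZ, gave 8.78 and 8.72 on the ZNF750-labelled arrays, against 8.30 and 8.21 on the GFP arrays, a difference of 0.49 ± 0.068. It was not called with the mean of its probe sets (0.17). The kinase gene SGK1 also rose (0.29 ± 0.058), while ERRFI1, an EGFR inhibitor (-0.33 ± 0.065), and the metallothionein MT2A (-0.19 ± 0.027) fell.

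**Figure D3:**
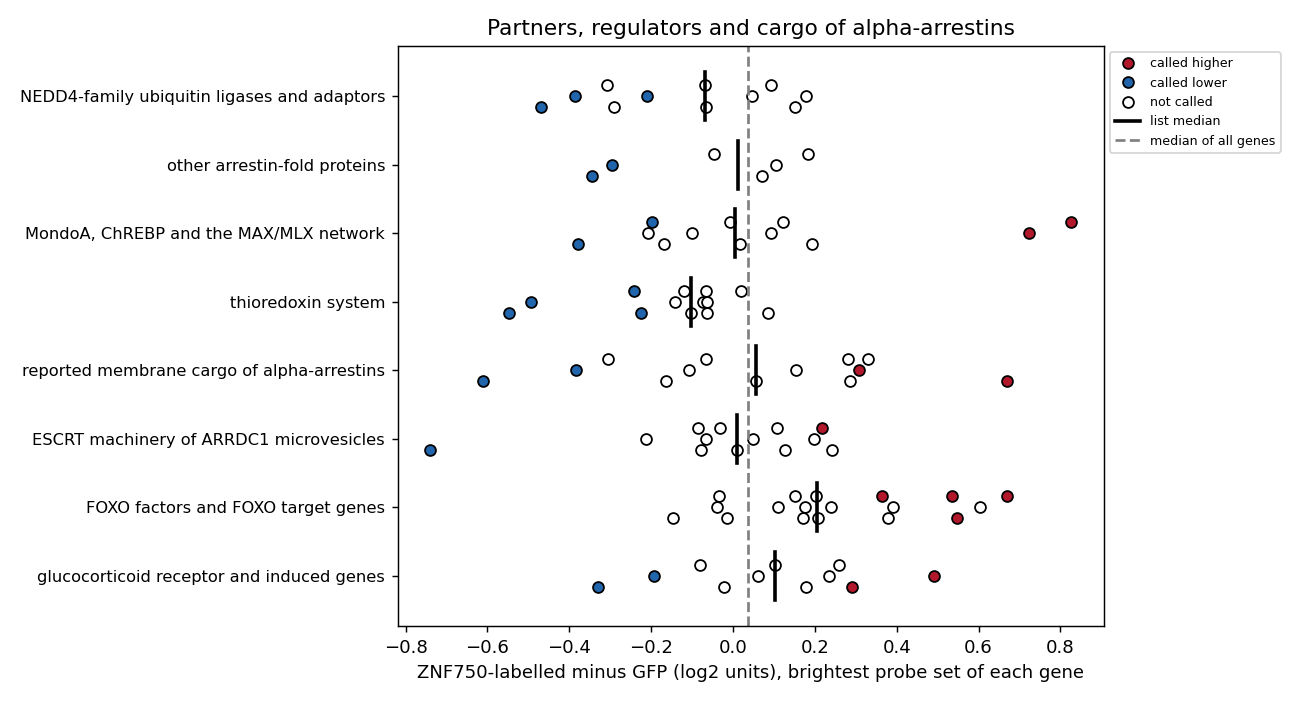
Difference (x axis, ZNF750-labelled minus GFP, log2 units) of each measured gene in the 8 lists (rows), with red points called higher, blue points called lower, open points not called, black bars for list medians and a dashed line for the median of all genes (0.04). The FOXO list has its median at 0.20 with 4 of 18 genes called higher, and the thioredoxin list has its median at -0.10 with 4 of 13 called lower.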

How the data were processed

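The authors deposited 1 table of log2 values for 4 arrays, made with RMA per the submitters' processing notes, with no version named. RMA corrects background, applies quantile normalization and gives 1 log2 summary per probe set. No scanner files or detection calls were used, so whether a dim probe set lay above background is not known, and the number of arrays limits precision.

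Differences (ZNF750-labelled minus GFP) came from limma 3.58.1 (R 4.3.3), using lmFit and eBayes with an intensity trend, over all 54613 probe sets that were not among the 62 controls. Benjamini-Hochberg adjustment covered them all, and an adjusted p under 0.05 was a call. Errors are limma's standard errors. Of these probe sets, 41091 had 1 symbol, 1801 several and 11721 none. Of those with 1 symbol, 41037 matched RefSeq by Entrez identifier, which changed 0 symbols. The fit was tested on simulated data.

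The members, lists and tests were chosen with earlier results of these data known. The named genes were the members, ZNF750, up to 4 called genes per list with the largest absolute difference, 7 partners fixed by name, and the 3 nearest profiles of 3 members. Of those 7, 1 is not reported here. Promoters came from RefSeq, and all 5 members matched. No protein sequences were used.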

Additional observations from a re-analysis of the deposited data

How the results depend on the processing

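ARRDC3, ARRDC2, ARRDC4 and TXNIP 201010_s_at kept their direction under every alternative run. So did TXNIP 201009_s_at and 201008_s_at where they were kept as probe sets of their own. Most alternatives could not change the direction where the groups did not overlap. Leaving out an array could not. The replicate block, the trend setting and the choice of probe sets leave the difference itself as it was. Cyclic loess could have changed it. Averaging could not for TXNIP, because every TXNIP probe set had a higher mean in the ZNF750-labelled arrays. With each array left out in turn, ARRDC1 226405_s_at ran from -0.06 to 0.13, ARRDC2 from 0.27 to 0.32 and ARRDC4 from -0.12 to -0.09. After cyclic loess ARRDC2 gave 0.33, ARRDC4 -0.080 and ARRDC1 234607_at -0.03. Each shift was larger than the pooled standard deviation of the replicates, and the cause was not tested. The median difference over all probe sets was 0.0016 after cyclic loess, against 0.026 as deposited.

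Across the whole table, 2348 probe sets were called higher and 3927 lower. With each array left out the counts ran from 8 to 267 higher and from 1 to 661 lower, with fewer arrays in each fit. They were 520 and 754 without the intensity trend, 1541 and 2013 with 1 probe set per gene, and 1043 and 1600 with the mean of probe sets, where 19775 genes were tested. After cyclic loess they were 3141 and 3710. Of the 96 genes in the lists, 10 were higher and 16 lower. These ran from 0 to 3 and from 0 to 3 with each array left out, and were 2 and 3 without the intensity trend and 15 and 13 after cyclic loess. PRDX3 reversed to 0.037 with the mean of probe sets and was not called. Of the 8 member probe sets, only ARRDC3 was called without the intensity trend.

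The replicate numbers of the titles are not said to mark a shared culture or day. Deviations of same-numbered arrays correlated at 0.13 across probe sets. In this balanced design a replicate block cannot move the differences (ARRDC3 1.57), but it changes their errors. With it 2 of the 8 member probe sets were called and ARRDC2 was not. Of the 26 called list genes 24 kept their call.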

Other observations

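Some genes around the alpha-arrestins had probe sets that disagreed. PRDX2, a cytosolic peroxiredoxin, was called lower on 39729_at (-0.55 ± 0.067, limma adjusted p = 0.00358) and higher on 215067_x_at (0.37 ± 0.089, limma adjusted p = 0.0377), a probe set whose suffix marks probes that can hybridize to other transcripts. KLF9, a glucocorticoid-induced factor, rose on 203542_s_at (0.57 ± 0.11, limma adjusted p = 0.0172) and differed by -0.08 on its brightest probe set, 228474_s_at. BCL6 rose on 203140_at (0.55) and differed by -0.19 on 228758_at, which was not called. MXD1 rose on 2 of 3 probe sets: 228846_at gave 1.02 ± 0.080 (limma adjusted p = 0.000778) beside the 0.72 of the brightest, and 206877_at gave 0.16 and was not called. KLF9 and these probe sets are named here after their values were seen.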
